A study of Mus musculus with 4 samples.

Results

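Metallothionein-high (Mt-high) fibroblasts were the fibroblasts of mouse spermatogonial cultures in which Mt1 and Mt2 together made up at least 1% of the UMIs of the cell. A UMI (unique molecular identifier) marks 1 captured RNA molecule. A barcode was taken as a fibroblast when it had over 400 and under 4000 genes, under 10% mitochondrial UMIs, at least 2 UMIs of Col1a1, Col1a2, Sparc and Dcn together, more of these than of the germ cell genes Dazl, Tex15, Stk31 and Epcam, under 3 UMIs of 8 genes of the cell cycle, and under 8% of UMIs from the nuclear RNAs Malat1 and Neat1. This gave 1116 Mt-high cells among 6080 fibroblasts and 24278 barcodes. The other 4964 fibroblasts, with under 1% from Mt1 and Mt2, are called Mt-low here. The members were thus chosen on measured values, and the levels of Mt1, Mt2 and the other 18 genes of the rule are a description with no test.

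The cultures were made from testes of male C57BL/6 pups at postnatal day 6 (3 mice a culture), from which cells carrying the surface protein Thy1 were taken with magnetic beads and grown on STO cells, a mouse embryonic fibroblast line used as a feeder layer. The vehicle arm was given PBS and the EV arm extracellular vesicles (EVs) that had been isolated from testes at postnatal day 7, at 1 µg/mL, for 3 days, and all cultures shared the feeder line, the medium and its growth factors. Single-cell RNA counts of vehicle 1, vehicle 2 and EV 1 were used, and values below are given in that order, while EV 2 was not analysed here beyond its barcodes. The sample titles call the libraries of an arm biological replicates, and the study's legends speak of independent samples, while the mice behind each library are not given in the sources used here. The p-values measure how the difference between Mt-high and Mt-low cells varied from library to library. The spread of each gene was drawn toward that of other genes. A gene can thus pass although its libraries disagree in sign.

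Metallothioneins are small cysteine-rich proteins that bind zinc and copper. Their genes are switched on by the zinc-sensing factor Mtf1, and also respond to glucocorticoids, oxidants and low oxygen. Hilpda, a label marker of these cells, is a target of the hypoxia-inducible factors and coats lipid droplets, and Cryab, the other label marker outside the rule, is a small heat shock protein.

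The promoters of the genes behind the label were read from RefSeq (GRCm38.p6), from 250 bases before to 50 after the transcription start. They are shown because both metallothionein genes and Hilpda have been studied as targets of factors that read short DNA words. In Mt1 (chr8:94178839-94179138, plus strand) and Mt2 (chr8:94172368-94172667, plus strand) the capitals mark the core of the metal response element, the word read by Mtf1, searched as TGCACNC and TGCGCNC on both strands. In the second of the 2 Hilpda promoters of the table (chr6:29272376-29272675, plus strand) they mark the core of the hypoxia response element, searched as ACGTG and GCGTG on both strands.
Mt1: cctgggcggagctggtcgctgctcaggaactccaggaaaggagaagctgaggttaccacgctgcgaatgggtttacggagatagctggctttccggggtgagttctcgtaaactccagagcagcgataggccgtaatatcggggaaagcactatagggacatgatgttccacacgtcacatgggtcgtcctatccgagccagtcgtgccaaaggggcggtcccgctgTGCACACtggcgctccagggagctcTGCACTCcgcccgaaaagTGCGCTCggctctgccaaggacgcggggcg
Mt2: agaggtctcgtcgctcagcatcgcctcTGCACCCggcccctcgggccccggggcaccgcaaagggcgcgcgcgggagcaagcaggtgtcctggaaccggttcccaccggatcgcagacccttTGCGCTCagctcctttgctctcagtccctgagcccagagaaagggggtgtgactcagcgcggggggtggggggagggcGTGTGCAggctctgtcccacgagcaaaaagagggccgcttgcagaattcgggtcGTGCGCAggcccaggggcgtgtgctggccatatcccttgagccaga
Hilpda: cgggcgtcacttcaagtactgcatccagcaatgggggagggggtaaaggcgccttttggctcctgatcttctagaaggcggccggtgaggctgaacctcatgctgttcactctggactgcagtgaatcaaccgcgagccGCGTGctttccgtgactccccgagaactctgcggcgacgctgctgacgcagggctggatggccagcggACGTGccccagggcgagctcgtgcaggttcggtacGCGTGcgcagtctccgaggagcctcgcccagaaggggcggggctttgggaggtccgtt

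The metal word occurred 3 times in the Mt1 window, starting at bases 228, 253 and 271 of the 300, and 4 times in the Mt2 window, at bases 28, 123, 201 and 255. At least 1 copy stood in 25.6% of all 27025 promoters, and at least 3 copies in 2.00%. Over the 8773 promoters of genes tested below these shares were 37.0% and 3.56%, and 9 of 16 (56.2%) promoters of the hypoxia list held the metal word. Of genes called in the contrast below, 37.2% of those higher and 36.4% of those lower in Mt-high cells held it, near the share of genes tested. The hypoxia word occurred 3 times in the Hilpda window shown, at bases 140, 208 and 243, and 1 time in its first promoter of the table. The window was picked with its matches known, and 3 or more copies stood in 9.11% of all promoters. Mt1 and Mt2 each held 2 hypoxia words, and the Hilpda window shown held 1 metal word, at base 245, which overlaps the hypoxia word at 243. In Mt2 the metal word at 201 overlaps a hypoxia word at 199. With the first promoter listed for each gene, as for the metal word, the hypoxia word stood in 43.8% of all promoters at least once, in 65.0% of those of genes tested and in 14 of 16 (87.5%) of those of the hypoxia list. It stood in 67.6% of promoters of genes called higher and in 61.0% of those called lower in Mt-high cells. A match is a description of letters and not a site. In the GRCm38 annotation the gene Mt1 (ENSMUSG00000031765) lies at chr8:94179082-94180327 and Mt2 (ENSMUSG00000031762) just before it at chr8:94172664-94173568. Hilpda (ENSMUSG00000043421) lies at chr6:29272488-29275446 and Cryab (ENSMUSG00000032060) at chr9:50751325-50756636.

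Mt-high cells made up a small share of the fibroblasts in both vehicle libraries and a large one in EV 1. They numbered 126 of 1978 fibroblasts in vehicle 1 (6.37%, 95% Wilson interval 5.38 to 7.53%), 108 of 2089 in vehicle 2 (5.17%, 4.30 to 6.20%) and 882 of 2013 in EV 1 (43.8%, 41.7 to 46.0%). EV 1 stood 38.0 percentage points above the vehicle mean. With 1 EV library the arm and the library cannot be told apart, no test between the arms was made, and all intervals cover counting error only. The share depended on where the line was drawn, and EV 1 was higher at each line tried. At a line of 0.5% the shares were 21.1%, 19.9% and 69.3%, and at 2% they were 0.809%, 0.957% and 18.1%.

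**Figure D1:**
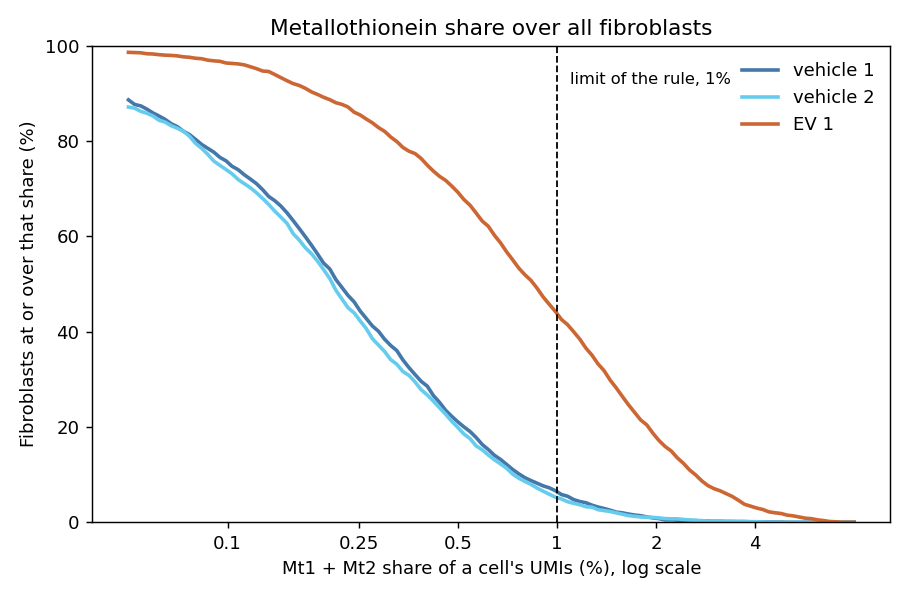
Share of fibroblasts (percent, vertical axis) whose Mt1 and Mt2 UMIs make up at least the percentage on the horizontal axis (log scale), with 1 line per library and the dividing line at 1%. At 1% the vehicle lines pass 6.37% and 5.17% and the EV 1 line 43.8%, and the latter lies to the right of both vehicle lines.

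The Mt-high cells are a range cut from a share and are not named as a cell type here. Over all fibroblasts the median share was 0.219%, 0.209% and 0.856%. Within Mt-high cells it was 1.33%, 1.36% and 1.77%, and the highest cell of each library reached 4.80%, 4.38% and 7.16%. Between 0.9 and 1% lay 27, 29 and 81 cells, and between 1 and 1.1% lay 28, 21 and 65 cells, with medians of 0.965%, 0.954% and 0.947% just under the line and 1.05%, 1.06% and 1.05% just over it. Among Mt-low cells the median was 0.204%, 0.198% and 0.454%, so that EV 1 was higher on both sides of the line.

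In summed UMIs, Mt1 made up most of the metallothionein RNA. Levels are given as CPM, the UMIs of a gene in the summed cells of a class, scaled to a total of 1000000 UMIs over all genes other than the 20 rule genes and 13 mitochondrial genes. Mt1 stood at 14260, 15211 and 19162 CPM in Mt-high cells and at 2403, 2346 and 4266 CPM in Mt-low cells. Mt2 stood at 1698, 2132 and 2965 CPM in Mt-high cells and at 387, 375 and 830 CPM in Mt-low cells. Both genes were higher in EV 1 than in either vehicle library within each class. The number of Mt1 UMIs per Mt2 UMI was 8.40, 7.14 and 6.46 in Mt-high cells, 6.22, 6.25 and 5.14 in Mt-low cells, and 3.47, 3.21 and 4.00 in germ cells called by the same sums. Within each library the ratio was highest in Mt-high and lowest in germ cells. Mt1 in germ cells was 766, 644 and 3003 CPM. Free RNA in the droplets was not subtracted, and the germ cells of EV 1 also held more of the fibroblast markers given below, so that these values are not read as expression by germ cells.

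Other members of the family were rare. Mt3, the form of brain, had 0 CPM in the Mt-high cells of both vehicle libraries and 0.415 CPM in those of EV 1. Mt4, the form of stratified epithelium and a neighbour of Mt1 on chromosome 8, stood at 13.5, 5.21 and 67.7 CPM in Mt-high and at 3.12, 2.93 and 12.2 CPM in Mt-low cells. Mt4 was chosen for mention after its values were seen, and its 163 UMIs in EV 1 came from 59 of the 882 cells, 26 of them from 1 cell. In the test described below Mt4 rose by a log2 difference of 2.42 ± 0.25 (SE, edgeR adjusted p = 8.7e-15), and its call was lost without EV 1 (1.72, adjusted p = 0.332).

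The label was set against marker lists. A list of 20 fibroblast markers summed to 7851, 7556 and 7234 CPM in Mt-high cells and 6714, 6852 and 6988 CPM in Mt-low cells, against 750, 666 and 1153 CPM in germ cells. A list of 10 germ cell markers outside the rule summed to 11.3, 18.2 and 9.55 CPM in Mt-high cells, against 593, 598 and 580 CPM in germ cells. The 4 genes of the Y chromosome, which the male pups carry, summed to 2.25, 10.4 and 1.25 CPM in Mt-high cells (1, 4 and 3 UMIs) and to 185, 190 and 193 CPM in germ cells. Germ cell markers outside the rule and Y-linked genes were thus far lower in Mt-high cells than in the germ cells of the same libraries. Leydig cell markers had 0, 2 and 0 UMIs. Sertoli cell markers summed to 335, 377 and 349 CPM in Mt-high and 391, 387 and 407 CPM in Mt-low cells, with most of it from Sox9, at 288, 307 and 306 CPM in Mt-high cells, while Amh and Dhh were at 0 there. In germ cells the list summed to 436, 451 and 393 CPM, so that it did not set the classes apart. The list also held Tex14, which encodes a protein of germ cell bridges, and these sums include it. Of the 4 genes of the list tested in the contrast below, Tex14 fell (-0.78 ± 0.17, edgeR adjusted p = 0.00080), although vehicle 2 went the other way (0.33), and its call was lost without EV 1 (-0.17). The part of such cells in the results was not tested. The 7 macrophage markers summed to 69.8, 13.0 and 27.4 CPM in Mt-high and 12.1, 11.6 and 24.7 CPM in Mt-low cells, and in Mt-high cells C1qa and C1qb were at 0 in all 3 libraries and Adgre1, Csf1r and Ptprc in both vehicle libraries.

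Depth and quality were compared next. The median cell held 3419, 3480 and 2664 UMIs against 3822, 4121 and 2648 UMIs, and its mitochondrial share was 1.70%, 1.62% and 1.66% against 1.88%, 1.65% and 1.67%. Thinned to 1000 UMIs, the median cell showed 644, 645 and 609 genes against 661, 668 and 639, so that Mt-high cells were slightly less diverse in each library. Scrublet, a doublet caller run here with a fixed rate, marked 0.794%, 2.78% and 3.97% of Mt-high cells against 2.54%, 2.42% and 4.42% of Mt-low cells. Pairs among the 4 libraries shared 11 to 22 barcodes, and in the 3 pairs without EV 2 no barcode of an Mt-high cell was shared. EV 1 held 242 germ cells by the same sums, against 4854 and 5264 in the vehicle libraries, and its fibroblasts were shallower.

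To find which other genes move with a high metallothionein share, the UMIs of Mt-high and of Mt-low cells were summed within each library and compared with edgeR, with the library as a block. This contrast uses all 3 libraries and leaves out the rule genes. Of 11110 genes tested, 392 rose and 146 fell in Mt-high cells at an adjusted p under 0.05, which is 3.53% higher, 1.31% lower and 4.84% in all. Counts of list members below stand beside these shares, and a single call is not read as a result about its list. The split into genes that rose and genes that fell depended on the scaling. With library sizes taken as plain totals that keep Mt1 and Mt2, 145 genes rose and 563 fell, as the median over all genes tested was then -0.16, against -0.01 in the fit as described. The fitted log2 differences below are not shifted by it. Those by library come from CPM, where the median over all genes tested was -0.09, -0.02 and -0.15. Without vehicle 1, 140 rose and 37 fell, without vehicle 2, 362 rose and 90 fell, and without EV 1, 212 rose and 83 fell. Without the library block, 1 gene (Fabp4) rose and 0 fell in edgeR, with 1123 genes at an unadjusted p under 0.05, against 1850 with the block.

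Of 19 measured genes of the hypoxia response, 11 rose in Mt-high cells and 0 fell, beside 3.53% and 1.31% of all genes, and the median log2 difference was 0.44. By library it was 0.61, 0.60 and 0.09, beside -0.09, -0.02 and -0.15 over all genes, so that it was larger in the vehicle libraries. Hilpda stood at 531, 544 and 709 CPM in Mt-high cells and at 238, 238 and 490 CPM in Mt-low cells. The groups did not overlap, and the log2 difference was 1.03 ± 0.09 (SE, adjusted p = 8.5e-20). Adm, which encodes the vasodilator peptide adrenomedullin, stood at 263, 276 and 272 CPM against 145, 151 and 220 CPM, and again did not overlap (0.73 ± 0.10, adjusted p = 2.2e-09). Ero1l, an oxidase that forms disulphide bonds in the endoplasmic reticulum, was an abundant member, at 1797, 2103 and 2832 CPM against 1089, 1210 and 2338 CPM. It was higher in Mt-high cells of each library, although the EV 1 Mt-low cells exceeded the vehicle Mt-high cells (0.71 ± 0.08, adjusted p = 2.4e-12).

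Ndrg1, a stress-responsive gene linked to differentiation, stood at 126, 143 and 284 CPM against 69.9, 67.2 and 226 CPM. Here too each library rose and the groups overlapped across libraries (0.71 ± 0.11, adjusted p = 1.8e-07). The remaining members that rose were Ankrd37 (0.62), the mitophagy receptors Bnip3 (0.58) and Bnip3l (0.44), the glucose transporter Slc2a1 (0.57), the oxygen sensor Egln1 (0.56), the collagen prolyl hydroxylase subunit P4ha2 (0.46) and the lipid droplet protein Plin2 (0.42). The other 8 did not pass the test. Vegfa, the angiogenic growth factor, had a log2 difference of 0.20, Pdk1, which restrains pyruvate oxidation, of 0.04, and Kdm3a, a histone demethylase, of -0.34 (adjusted p = 0.105). Higd1a and Fam162a, mitochondrial proteins responsive to low oxygen that were named after their values were seen, rose by 0.91 ± 0.08 and 0.56 ± 0.08. Higd1a stood at 1954, 2064 and 2465 CPM against 986, 1055 and 1822 CPM, without overlap. With the plain totals, 10 hypoxia genes rose and 1 fell, and without vehicle 1 there were 9 that rose, without P4ha2 (0.37) and Bnip3l (0.29). Plin2 did not pass without EV 1 (0.29). With cells thinned to 1000 UMIs, 4 of 16 rose, and for 2% or more against under 0.5%, 4 of 19.

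**Figure D2:**
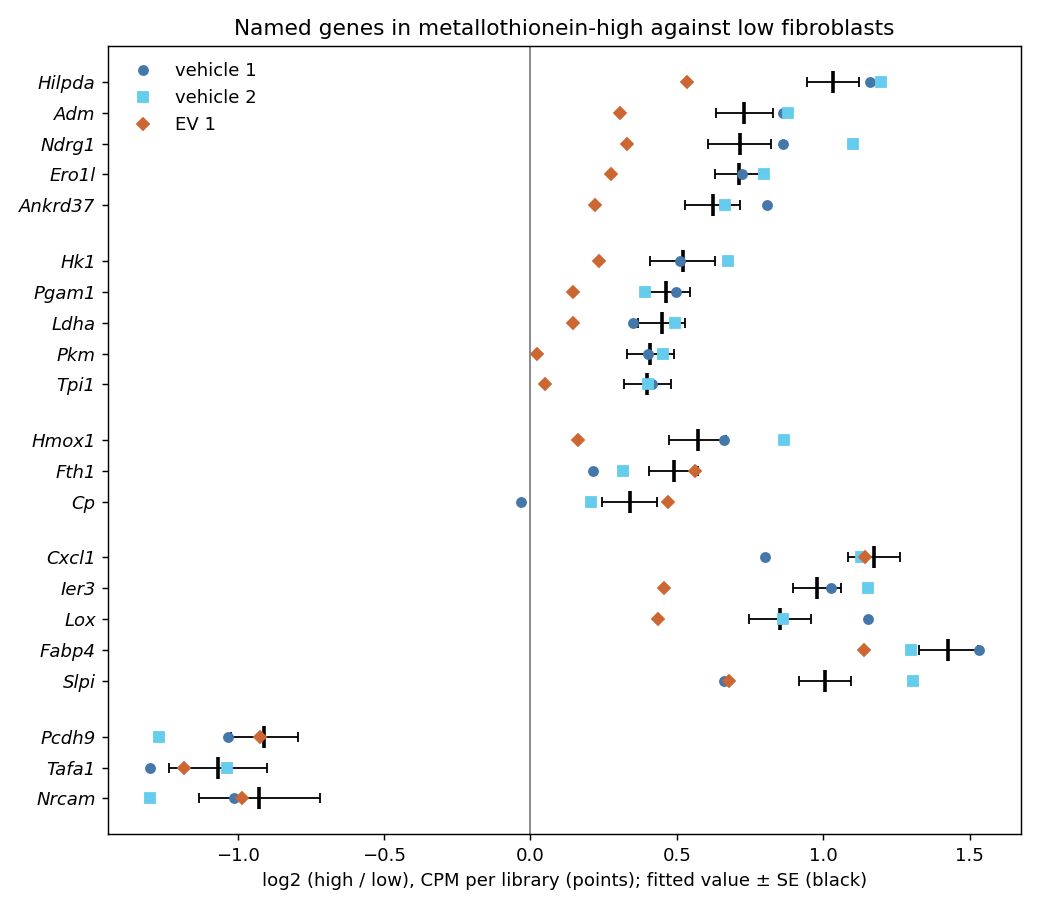
Log2 ratio of Mt-high to Mt-low fibroblasts (horizontal axis) for genes grouped by list (vertical axis), with coloured points for the 3 libraries from CPM and black marks for the edgeR value ± SE. Hilpda lies right of 0 in all 3 libraries with a fitted value of 1.03, Cp lies on both sides of 0, and Pcdh9 lies left of 0 with a fitted value of -0.91.

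Of 16 measured enzymes of glycolysis, 9 rose and 0 fell, beside 3.53% and 1.31% of all genes. Their median was 0.33 (0.28, 0.40 and 0.03 by library). Ldha, which makes lactate, stood at 1641, 1892 and 1797 CPM against 1290, 1345 and 1624 CPM, higher in each library and without overlap of the groups (0.45 ± 0.08, adjusted p = 1.3e-05). Hk1, which phosphorylates glucose, rose by 0.52 ± 0.11, Pgam1 by 0.46 ± 0.08, Pkm by 0.41 ± 0.08 and Tpi1 by 0.40 ± 0.08. Without vehicle 1 only 1 of the 16 passed the test, against 9 without vehicle 2 and 10 without EV 1, and 7 passed with the plain totals. Without vehicle 1 the value of Ldha was 0.42 (edgeR adjusted p = 0.0625), and Pgam1 (0.37), Pkm (0.34) and Tpi1 (0.32) also lost the call. For 2% or more against under 0.5%, 0 of 15 passed in edgeR, with a list median of 0.25, where 49 of all 9463 genes tested rose and 29 fell.

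Of 13 genes that handle copper and iron, 5 rose and 0 fell (median 0.31), beside 3.53% and 1.31% of all genes. Fth1, the heavy chain of the iron store ferritin, was among the most abundant transcripts, at 20634, 20903 and 22528 CPM in Mt-high and 17807, 16795 and 15274 CPM in Mt-low cells, without overlap (0.49 ± 0.08, adjusted p = 8.4e-06). Hmox1, which breaks down heme and releases its iron, stood at 187, 247 and 404 CPM against 119, 136 and 361 CPM, and was higher in each library with overlap across them (0.57 ± 0.10, adjusted p = 8.0e-06). Cp, the copper oxidase ceruloplasmin, passed the test (0.34 ± 0.09) with 374, 482 and 147 CPM against 383, 419 and 106 CPM, so that vehicle 1 was near level. Without vehicle 1 the value of Fth1 was 0.55 and did not pass (edgeR adjusted p = 0.114), and Cp did not pass without EV 1 (0.16, adjusted p = 0.617). Only 2 genes of the list rose without vehicle 1, 2 without EV 1 and 2 with the plain totals, where 1 fell.

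Zinc handling gave 1 call. Of 18 measured genes of metallothionein and zinc handling, Mt4 alone rose and 0 fell, with a median of 0.10. Slc30a1, the zinc exporter that is the other classic target of Mtf1, had 0, 2 and 10 UMIs in Mt-high cells, that is 0, 5.21 and 4.15 CPM against 4.34, 3.17 and 8.34 CPM in Mt-low cells (-0.78 ± 0.55, adjusted p = 0.519). Mtf1 itself stood at 15.8, 26.0 and 11.2 CPM against 16.7, 17.2 and 14.8 CPM (0.05 ± 0.27), with the groups overlapping. The largest differences among the better measured transporters were 0.28 for the exporter Slc30a5, 0.21 for Slc30a9 and -0.19 for the importer Slc39a14, none of which passed the test.

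Cryab, the heat shock protein of the label, was a weaker marker than Hilpda. It stood at 83.3, 109 and 392 CPM in Mt-high and 64.4, 75.4 and 327 CPM in Mt-low cells. Within each library it was higher in Mt-high cells, but the EV 1 Mt-low cells held more than the vehicle Mt-high cells, and the distance between libraries exceeded that between classes. The vehicle Mt-high values rest on 37 and 42 UMIs, and the counting interval of vehicle 1 (58.7 to 115 CPM) held its Mt-low value. In edgeR Cryab rose by 0.46 ± 0.11 (adjusted p = 0.0016), and the call was lost with the plain totals (adjusted p = 0.060) and without EV 1 (0.53, adjusted p = 0.103). Of 17 heat shock genes and chaperones, Cryab and Hsp90aa1 (0.32 ± 0.08) rose and 0 fell, beside 3.53% and 1.31% of all genes. With the plain totals 0 of the list rose and 2 fell, and Hsp90aa1 lost the call (edgeR adjusted p = 0.138). Hspb1, another small heat shock protein, was found in 0 cells of either class in each library. Of 16 genes of the unfolded protein response only the chaperone Hsp90b1 rose (0.28 ± 0.08), and of 20 oxidative stress genes only Sod2, the mitochondrial superoxide dismutase (0.39 ± 0.10). These are single genes, beside 3.53% of all genes that rose. The integrated stress response, which slows translation, gave 3 of 21 genes, among them Cebpb (0.52 ± 0.09) and the translation repressor Eif4ebp1 (0.42 ± 0.09), with a list median of -0.02. In edgeR Hsp90b1 and Sod2 did not pass without vehicle 1 (0.23 and 0.34) or without EV 1 (0.29 and 0.27), Hsp90aa1 without vehicle 1 (0.27) and Cebpb without EV 1 (0.32). The interferon response gave 0 calls of 18 in edgeR, with a list median of 0.04, 2 genes lower at an unadjusted p under 0.05, and 0 calls in DESeq2, which gave an adjusted p for 1 gene of the list.

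Of 13 glucocorticoid-responsive genes, 3 rose and 0 fell (median 0.31), beside 3.53% and 1.31% of all genes. Those that rose were Lcn2, Angptl4 and Cebpd. Angptl4, an inhibitor of lipoprotein lipase, stood at 81.1, 75.5 and 176 CPM against 57.8, 60.0 and 129 CPM (0.57 ± 0.11), higher in each library with the groups overlapping. Lcn2, an iron carrier of innate defence, stood at 266, 739 and 490 CPM against 394, 341 and 258 CPM, so that vehicle 1 went the other way, although the fit called it (0.73 ± 0.10). Tsc22d3 and Dusp1, classic targets of the receptor, had log2 differences of 0.45 and 0.31 and did not pass (adjusted p = 0.183 and 0.300). Without EV 1 Angptl4 (0.49) and Cebpd (0.24) did not pass, nor did Cebpd without vehicle 2 (0.33). In vehicle 1 Cebpd was near level, at 295 against 302 CPM.

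Single genes for secreted factors had large differences, while the medians of their lists were near that of all genes. Cxcl1, a chemokine for neutrophils, stood at 358, 383 and 838 CPM in Mt-high and 206, 175 and 380 CPM in Mt-low cells (1.17 ± 0.09, adjusted p = 1.4e-23). Each library showed more in Mt-high cells, and only the EV 1 Mt-low cells reached the vehicle Mt-high range. Its 159, 147 and 2019 UMIs of Mt-high cells lay in 40, 37 and 483 cells, with at most 21, 24 and 64 in 1 cell. A Cxcl1 UMI was found in 31.7%, 34.3% and 54.8% of Mt-high and 31.3%, 29.8% and 37.8% of Mt-low cells, so that vehicle 1 was near level by this count. Of 21 chemokines and NF-kB targets, 3 rose (Csf3, Cxcl1 and Ccl2) and 1 fell (Saa3) with a median of 0.05. Ccl2, a chemokine for monocytes (0.35 ± 0.08), was lower in Mt-high cells of vehicle 2 (-0.30), and its call was lost without vehicle 1 (0.21), without EV 1 (0.17) and with the plain totals (0.20). Without EV 1 the list had 1 higher and 2 lower, and without vehicle 2 it had 5 higher and 1 lower. Ier3, an early response gene that affects survival, stood at 1374, 1523 and 2522 CPM against 676, 686 and 1838 CPM (0.98 ± 0.08, adjusted p = 6.3e-20), and was higher in each library. Of 19 immediate early genes and ligands of the EGF receptor, 4 rose and 0 fell, namely Ier3, Hbegf (0.45 ± 0.11), Fosl1 (0.39 ± 0.10) and Jund (0.36 ± 0.08), with a median of 0.03. Of all genes tested, 3.53% rose and 1.31% fell. With the plain totals 1 of the list rose and 1 fell, and Hbegf, Fosl1 and Jund lost the call. Hbegf (0.37), Fosl1 (0.32) and Jund (0.36) did not pass without vehicle 1, nor did Jund without vehicle 2 (0.23) and Fosl1 without EV 1 (0.40). Fos had a log2 difference of -0.41 and did not pass (edgeR adjusted p = 0.077), but with the plain totals it was called lower (-0.55, edgeR adjusted p = 0.0104).

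The 10 genes with the largest rises that went the same way in each library and had a mean of at least 20 CPM over both classes were S100a8 (1.70), Mcpt8 (1.67), Fabp4 (1.43), Cxcl1 (1.17), Bst1 (1.14), Steap4 (1.11), Fam3a (1.05), Hilpda (1.03), Slpi (1.01) and Gm19705 (0.99). As that mean takes in the Mt-high sums, a gene can enter this ranking through the class where it is high. Fabp4, a fatty acid carrier of fat cells and macrophages, stood at 272, 226 and 217 CPM against 94.6, 92.5 and 98.5 CPM, without overlap and with the classes further apart than the libraries of either class (1.43 ± 0.10, adjusted p = 2.8e-26). In vehicle 1, however, 38 of its 121 UMIs came from 1 of 42 cells that held any. Slpi, an inhibitor of leukocyte proteases, stood at 633, 773 and 235 CPM against 401, 313 and 147 CPM, with 77 of 281 UMIs of vehicle 1 in 1 cell. S100a8, a calcium-binding protein of neutrophils, stood at 33.8, 46.9 and 71.4 CPM against 32.4, 11.8 and 14.8 CPM, and 37 of 172 UMIs in EV 1 lay in 1 cell. Mcpt8, a protease of basophils, had 10 of 18 UMIs of vehicle 1 and 10 of 20 of vehicle 2 in 1 cell, from 5 and 6 cells that held any. Without EV 1 S100a8 (0.94, edgeR adjusted p = 0.0718) and Bst1 (1.11, adjusted p = 0.0528) did not pass, nor did Steap4 without vehicle 2 (0.77, adjusted p = 0.245). In EV 1 the UMIs were less concentrated for Fabp4 (523 in 299 cells, at most 16 in 1 cell), Slpi (565 in 228 cells, at most 30) and Mcpt8 (47 in 32 cells, at most 4).

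A list of 6 genes of myeloid granules, added after the values were seen and holding S100a8 of the 10 genes above, summed to 40.5, 67.7 and 94.3 CPM in Mt-high and 33.9, 13.5 and 23.4 CPM in Mt-low cells, so that the sum was higher in Mt-high cells of each library. Mpo, a defining gene of neutrophil granules, was at 0 in Mt-high cells and in the Mt-low cells of vehicle 1 and EV 1. Csf3, a growth factor for neutrophils, rose by 1.89 ± 0.36 from 5, 8 and 47 UMIs in Mt-high cells, and Camp, an antimicrobial peptide, by 2.17 ± 0.42 from 2, 6 and 53 UMIs. Both were named after their values were seen. Lyz2, a macrophage marker, was also called (3.09), with 29 of its 29 UMIs in vehicle 1 in 1 cell, and was not called without that library (1.27, edgeR adjusted p = 0.453). Csf3 was not called without EV 1 (1.92, adjusted p = 0.0648). The part of such cells in the rises was not tested.

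Genes of matrix and contraction gave mixed counts. Of 21 collagens and matrix genes, 2 rose and 1 fell, beside 3.53% and 1.31% of all genes, and with the plain totals 1 rose and 4 fell. Lox, which cross-links collagen, stood at 203, 187 and 196 CPM against 91.6, 104 and 145 CPM without overlap (0.85 ± 0.10, adjusted p = 1.1e-10), and Timp3, an inhibitor of matrix proteases, at 94.6, 59.9 and 43.6 CPM against 148, 143 and 69.9 CPM (-0.66 ± 0.13), lower in each library. Of 17 fibroblast markers outside the rule, 4 rose (Prrx1, Col3a1, S100a4 and Fn1) and 0 fell with a list median of 0.03, and with the plain totals 1 rose and 1 fell. Prrx1 (0.38), Col3a1 (0.34), S100a4 (0.24) and Fn1 (0.35) did not pass without vehicle 1, nor did Col3a1 without vehicle 2 (0.37). Of 15 genes of contraction and the TGF-beta response, 3 rose (Thbs1, Ccn1 and Ccn2) and 2 fell (Tgfbi and Vcl), and with the plain totals 1 rose and 3 fell. In vehicle 1 Thbs1 went the other way, at 9.01 against 13.4 CPM. Ccn1, Ccn2, Tgfbi and Vcl lost the call in edgeR with any 1 library left out (0.62, 0.62, -0.90 and -0.46 without vehicle 1). Without EV 1, 0 of the 15 were called by edgeR, and DESeq2 gave none of these 5 genes an adjusted p. Spp1, the secreted matrix protein osteopontin, which was named after its values were seen, was among the most abundant genes, at 21514, 19019 and 14045 CPM against 14416, 14042 and 9193 CPM (0.67 ± 0.08, adjusted p = 2.2e-10).

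Growth factors that act on germ cells gave 2 single calls in opposite directions, beside 3.53% higher and 1.31% lower of all genes. Of 12 measured, 1 rose and 1 fell, with a median of -0.08, and with the plain totals 1 rose and 2 fell. Lif, a cytokine used to culture stem cells, stood at 67.5, 59.9 and 85.1 CPM against 40.4, 38.5 and 65.4 CPM and was higher in each library (0.64 ± 0.14, adjusted p = 0.00083). Nrg1, a ligand of ErbB receptors, stood at 29.3, 59.9 and 45.3 CPM against 85.2, 76.5 and 73.1 CPM without overlap (-0.63 ± 0.15, adjusted p = 0.0017), and did not pass without vehicle 1 (-0.47, edgeR adjusted p = 0.131). Kitl, the ligand of the Kit receptor of spermatogonia, stood at 67.5, 70.3 and 73.1 CPM against 89.5, 96.2 and 97.9 CPM and did not pass the test (-0.29 ± 0.13, adjusted p = 0.197), although its groups did not overlap. Of 15 p53 targets, Eda2r and Trp53inp1 fell and 0 rose, and with the plain totals 5 fell. Both lost the call with any 1 library left out (-0.84 and -0.37 without vehicle 1, -0.79 and -0.52 without vehicle 2, and -0.79 and -0.65 without EV 1). Of 18 nuclear genes of the respiratory chain 3 rose, and of 15 genes of lysosome and autophagy 3 rose, with 0 lower in either list. Of all genes tested, 3.53% rose and 1.31% fell. The respiratory chain gave 0 calls in edgeR without vehicle 1, without EV 1 and with the plain totals, and 4 without vehicle 2. Lysosome and autophagy gave 0 without vehicle 1, 1 without EV 1, 1 with the plain totals and 4 without vehicle 2. Of 14 genes of sterol synthesis edgeR called 0, with 1 higher and 1 lower at an unadjusted p under 0.05, and DESeq2 gave none of them an adjusted p.

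Among the 10 deepest falls that met the same rule were Tafa1 (-1.07), Gm15614 (-0.98), Nrcam (-0.93), Pik3cb (-0.92), Pcdh9 (-0.91), Gpr149 (-0.90), Gga2 (-0.86), Bcl2 (-0.86) and Saa3 (-0.83). Pcdh9, a protocadherin of cell contacts, stood at 96.8, 96.3 and 72.2 CPM against 200, 235 and 137 CPM without overlap (-0.91 ± 0.12, adjusted p = 3.7e-10). Tafa1, a secreted protein of the nervous system, stood at 27.0, 31.2 and 27.4 CPM against 69.2, 66.7 and 62.6 CPM, also without overlap (-1.07 ± 0.17). Gga2 lost the call in edgeR with any 1 library left out (-0.78, -0.78 and -1.27 without vehicle 1, vehicle 2 and EV 1). Gpr149 lost it without vehicle 1 (-0.86) or vehicle 2 (-0.53), Bcl2 without vehicle 1 (-0.58) or EV 1 (-1.18), and Gm15614 (-0.75), Nrcam (-1.20), Pik3cb (-1.01) and Saa3 (-1.17) without EV 1. Saa3 lost it without vehicle 1 as well (-0.80), and its sign turned at a dividing share of 0.5% (1.78) and of 2% (0.37), for 2% or more against under 0.5% (1.19), with thinned cells (0.33) and with a stricter fibroblast rule (0.21).

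The difference between the classes followed the span of the gene in the genome. From the start to the end of the annotated gene (GENCODE vM21, GRCm38, found for all 11110 genes), the median span was 10.1 kb for genes that rose, 175 kb for genes that fell and 26.2 kb for all genes tested. Of 1137 genes under 5 kb, 114 rose and 4 fell, whereas of 363 genes of 300 kb or more, 0 rose and 50 fell. The median log2 difference went down over the 6 bins of span, through 0.15, 0.07, -0.02, -0.09, -0.16 and -0.29. The order was the same in each library, and the last bin had medians of -0.49, -0.32 and -0.43. Genes of 300 kb or more gave 1.82%, 2.08% and 1.73% of the UMIs of Mt-high cells and 2.47%, 2.61% and 2.27% of those of Mt-low cells. The nuclear RNAs Malat1 and Neat1 made up a median of 1.74%, 2.45% and 2.24% of Mt-high and 1.98%, 2.37% and 2.51% of Mt-low cells. Their part in the result was not tested.

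The lists were also set against genes of their own span. The median of the hypoxia list was 0.48 above the median of the span bin of each gene, with 16 of 19 genes above it. Glycolysis was 0.25 above, with 14 of 16 genes, and copper and iron handling 0.25 above, with 11 of 13 genes. The p53 targets stood at -0.19 on the same measure, with 3 of 15 genes above. These are descriptions of the lists with no test, and the part of span in their differences was not tested.

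**Figure D3:**
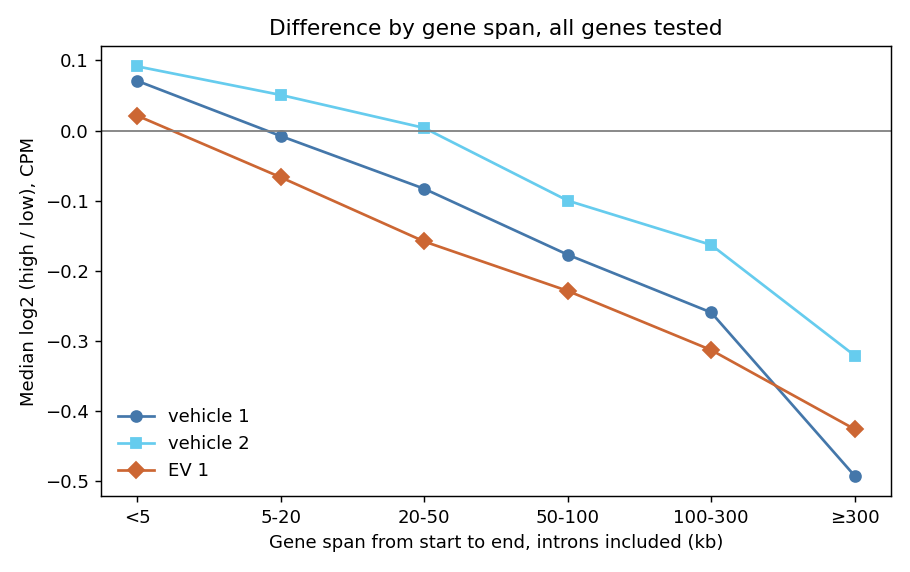
Log2 difference of Mt-high minus Mt-low fibroblasts (vertical axis) by the span of the gene in kb (horizontal axis, 6 bins), as medians over the genes tested from CPM, with 1 line per library. The lines go down to -0.49, -0.32 and -0.43 at 300 kb or more, and each bin lies below the one before.

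Levels were also followed over the range of the Mt share. Fibroblasts were binned at shares of 0.25, 0.5, 1 and 2%, with 16, 20 and 364 cells at 2% or more. The planned bins of 2 to 4% and 4% or more were joined after their cells were counted, since only 2 cells of each vehicle library stood at 4% or more. Over the 5 bins Hilpda stood at 177, 281, 405, 526 and 572 CPM in vehicle 1, at 172, 291, 426, 557 and 494 CPM in vehicle 2, and at 432, 461, 538, 685 and 746 CPM in EV 1. Hilpda thus already differed among Mt-low cells, and EV 1 started near the level that the vehicle cells reached at a share of 0.5 to 1%. Ier3 went from 512 to 1483 CPM in vehicle 1, from 515 to 1876 CPM in vehicle 2 and from 1550 to 2772 CPM in EV 1, with each bin above the one before.

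The hypoxia genes summed to 3457, 4769, 5459, 6150 and 7271 CPM over the bins of vehicle 1 and to 3749, 4829, 5969, 6633 and 7161 CPM over those of vehicle 2. In EV 1 the sums were 6885, 7097, 7577, 8365 and 8254 CPM, a smaller rise from a higher start. Glycolysis went from 12478 to 18634 CPM in vehicle 1 and from 12578 to 16756 CPM in vehicle 2, but only from 15156 to 16204 CPM in EV 1. The lowest EV 1 bin was thus above the lowest vehicle bins for both lists.

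Other genes had another shape. Below a share of 2% Cxcl1 stood at 185, 224, 258 and 299 CPM in vehicle 1 and at 151, 217, 210 and 236 CPM in vehicle 2, and at 2% or more it stood at 768 and 951 CPM. In EV 1 it was 334, 335, 431, 751 and 975 CPM. The last value of each vehicle library rests on 16 and 20 cells. Spp1 went from 12936 to 23673, from 12360 to 19101 and from 7360 to 15786 CPM, with each bin above the one before in all 3 libraries. Fth1 went from 16967 to 21779 CPM in vehicle 1, from 15946 to 27835 CPM in vehicle 2 and from 12937 to 26656 CPM in EV 1. Fabp4 in vehicle 1 stood at 90.3, 94.4, 112, 296 and 107 CPM, with its highest value between 1 and 2%. Pcdh9 went down in each bin, from 233 to 17.9, from 282 to 50.7 and from 189 to 52.3 CPM. The vehicle values of the last bin are from 1 and 4 UMIs. Cryab showed no steady order in EV 1, at 379, 322, 303, 431 and 330 CPM.

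**Figure D4:**
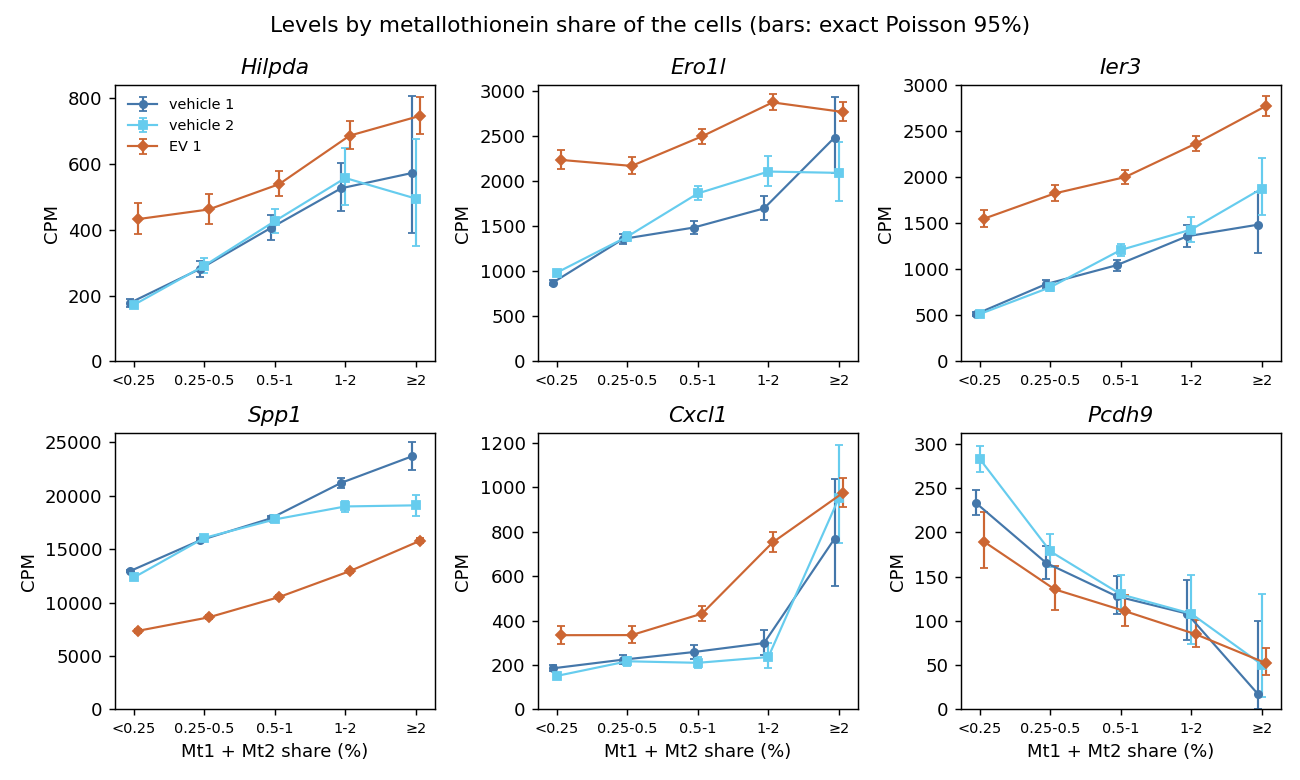
Levels (CPM, vertical axes) of 6 genes over 5 bins of the Mt1 and Mt2 share of the cell (percent, horizontal axes), with 1 line per library and exact 95% Poisson intervals that cover counting error only. Hilpda climbs over the bins of vehicle 1 from 177 to 572 CPM, and EV 1 starts at 432 CPM in the lowest bin.

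Detection of the label markers was also counted cell by cell, which depends on depth and does not limit the share of cells that express a gene. After thinning to 1000 UMIs, 38.5%, 36.2% and 45.0% of Mt-high cells held a Hilpda UMI, against 18.6%, 18.8% and 37.4% of Mt-low cells and 4.25%, 3.46% and 6.81% of germ cells. Before thinning it was 65.9%, 64.8% and 74.3% of Mt-high cells. Cryab was found in 4.10%, 13.3% and 21.0% of Mt-high, 4.76%, 5.15% and 16.2% of Mt-low and 1.51%, 1.38% and 6.28% of germ cells. The value of vehicle 1 rests on 5 of 122 cells (95% Wilson interval 1.76 to 9.24%). Before thinning Cryab was found in 18.3%, 21.3% and 38.2% of Mt-high and 15.0%, 18.5% and 32.9% of Mt-low cells. Both genes were found in 3.28%, 2.86% and 10.8% of Mt-high cells and neither in 60.7%, 53.3% and 44.9%. The thinned sets left out 4, 3 and 24 Mt-high cells with under 1000 UMIs. Cxcl1 was found in 15.6%, 18.1% and 35.2% of Mt-high, 12.4%, 10.8% and 22.5% of Mt-low and 1.36%, 1.15% and 4.71% of germ cells.

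Within Mt-high cells, EV 1 was compared with the vehicle mean as a log2 ratio, with 0.5 UMI added to each sum and no test. A gene was counted when it was past 2-fold and lay beyond both vehicle values by a margin wider than the gap separating them. Of 6210 genes compared, 47 were higher (0.757%) and 116 lower (1.87%) in EV 1. This split turned with the scaling, to 91 higher and 54 lower with TMM factors, which moved the ratios by 0.19. Without vehicle 1 there were 90 higher and 295 lower, and without vehicle 2 there were 115 and 185, where the margin between the vehicle libraries could not be applied. Among Mt-low cells 70 of 6571 were higher (1.07%) and 113 lower (1.72%).

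Cryab was among the 5 genes with the highest ratios, at 392 CPM in EV 1 against 83.3 and 109 CPM, a log2 ratio of 2.01 (ratio 3.26 to 5.23 by counting error). Among Mt-low cells its log2 ratio was 2.23, so that it was high in EV 1 fibroblasts on both sides of the line. Hbegf, a ligand of the EGF receptor, stood at 363 CPM against 108 and 93.7 CPM in Mt-high cells (1.83), and its ratio in Mt-low cells was 2.26. Mt4 (2.68), the muscle troponin Tnnt2 (1.91) and Ggct, an enzyme of glutathione turnover (1.86), were the others at the top, from 6 and 2, 6 and 3, and 9 and 1 vehicle UMIs. The highest ratio, 5.00 for the chemokine Cxcl2, came from 180 UMIs of EV 1 in 8 cells, with 149 in 1 cell, against 1 and 0 UMIs in the vehicle libraries.

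Lower in EV 1 Mt-high cells were the immediate early genes Fos, at 19.5 CPM against 110 and 96.3 CPM (-2.41), and Fosb, at 17.4 against 81.1 and 67.7 CPM (-2.10). The adhesion molecule Vcam1 stood at 24.1 against 108 and 83.3 CPM (-2.0), the interferon-induced Rtp4 at 12.5 against 47.3 and 62.5 CPM (-2.15) and Nudt22 at 7.89 against 36.0 and 26.0 CPM (-1.99). In Mt-low cells the ratios of the first 4 were -3.27, -2.86, -2.01 and -1.49. Fos, Fosb, Vcam1 and Rtp4 thus lay on the same side of the vehicle values in both classes. Of 9 interferon genes compared in Mt-high cells, 5 were counted as lower, beside 1.87% of all genes, with a median of -1.27, and in Mt-low cells 6 of 10 with a median of -1.08. Bst2, an antiviral membrane protein, stood at 135 CPM against 281 and 305 CPM, and Isg15, a ubiquitin-like modifier, at 45.3 against 115 and 98.9 CPM.

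Genes that separated Mt-high from Mt-low cells were also set against the vehicle mean within each class. For Hilpda EV 1 exceeded the vehicle mean by a log2 ratio of 0.40 in Mt-high and 1.04 in Mt-low cells, and the same pair of ratios was 0.54 and 1.02 for Ero1l, 0.80 and 1.43 for Ier3, and 1.07 and 1.72 for Ndrg1. Adm was level in Mt-high cells (0.01) and stood at 0.57 in Mt-low cells. The hypoxia list had a median of 0.28 in Mt-high cells, with 1 of 16 genes counted as higher (0.757% of all genes), and 0.64 in Mt-low cells, with 4 of 16 (1.07% of all genes), beside medians of -0.15 and -0.07 over all genes compared in both classes. For these the ratio was smaller in Mt-high cells, whereas it was larger in size there for Cxcl1 (1.17 and 0.99), Slpi (-1.58 and -1.28), Mt4 (2.68 and 2.00) and Steap4 (-3.14 and -2.78), and Mcpt8 had opposite signs (-1.27 and 0.63). The difference between the classes was not tested. Cp stood at -1.55 and -1.92, and the median of the copper and iron genes at -0.27 and -0.07, near those over all genes. Fabp4 stood at -0.21 and 0.08, with counting intervals that held a ratio of 1.

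**Figure D5:**
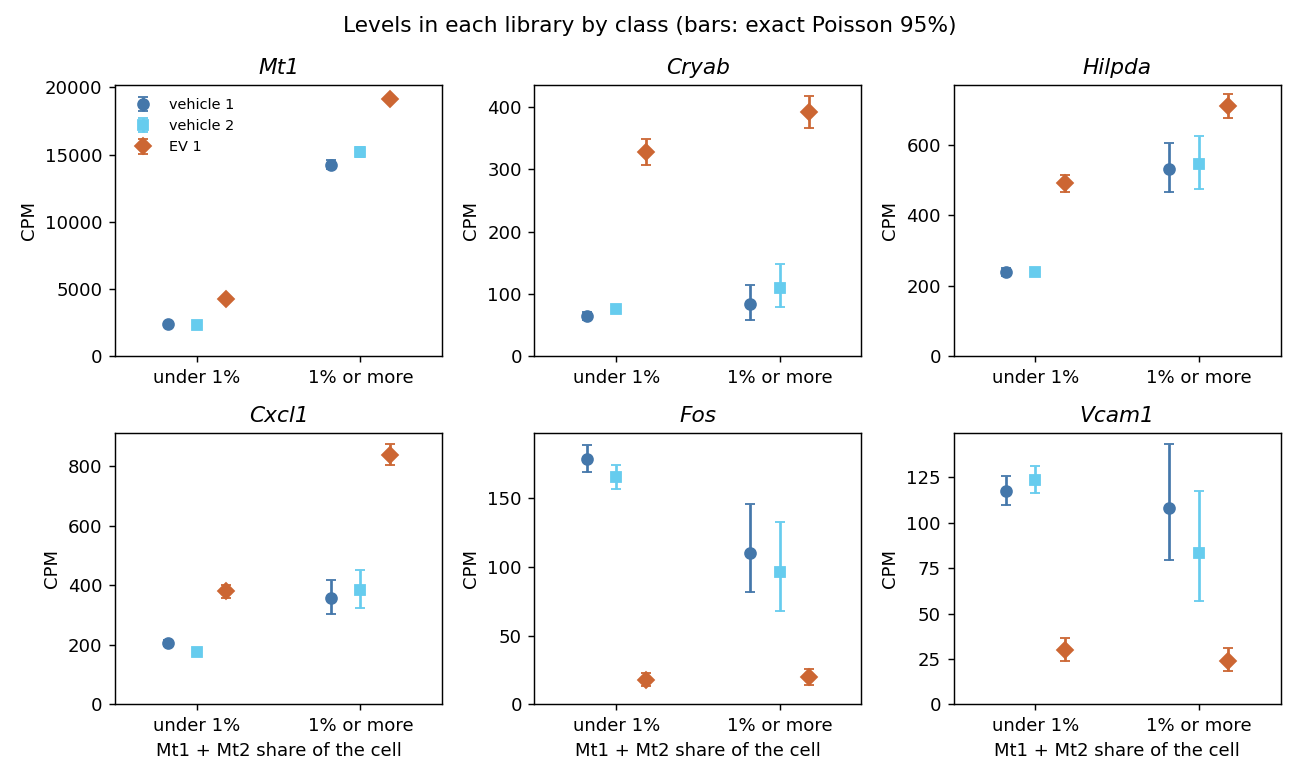
Levels (CPM, vertical axes from 0) of 6 genes in vehicle 1, vehicle 2 and EV 1, for Mt-low (under 1%) and Mt-high (1% or more) fibroblasts, with exact 95% Poisson intervals that cover counting error only. Cryab lies at 392 and 327 CPM in EV 1 and at 64.4 to 109 CPM in the vehicle libraries, and Fos lies at 17.6 to 19.5 CPM in EV 1 and at 96.3 to 179 CPM in the vehicle libraries.

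Over all fibroblasts EV 1 held more Hilpda than the vehicle mean by a log2 ratio of 1.21. Recomputed with Mt-high cells at the vehicle share of 5.77% instead of 43.8%, the ratio was 0.99. The same step moved Cxcl1 from 1.54 to 1.02 and Cryab from 2.32 to 2.22.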

How the data were processed

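Single-cell RNA of the cultures was measured with droplet libraries. Per the submitters' processing notes and the study's methods, the authors aligned reads to mm10 with Cell Ranger 7.0.1 and deposited raw UMI counts per gene and barcode (32285 genes), which were used for 3 libraries with 23686047 (vehicle 1), 27444797 (vehicle 2) and 10793232 (EV 1) UMIs. For EV 2 only the 6794 barcodes were used. No cell annotation was used, and the classes were rebuilt from the sums given above. The members and the 27 gene lists were chosen with earlier results of these data known.

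UMIs were summed per library and class, and Mt-high and Mt-low sums were compared with the quasi-likelihood test of edgeR 4.0.16 (R 4.3.3), with TMM factors, filterByExpr, the library as a block, and Benjamini-Hochberg adjustment over all genes tested. The block comes from the design, since both classes of a library share its cells' culture and preparation. The 20 rule genes and 13 mitochondrial genes were left out of the sums. The 2 highest bins of the Mt share were joined after their cells were counted. DESeq2 1.42.0 was an alternative. Its independent filtering left an adjusted p for 1848 of the 11110 genes, and the others were taken as having no value. Doublets were marked with Scrublet in scanpy 1.11.5, at 0.8% per 1000 cells, and kept except in 1 alternative. The scripts were tested on simulated data.

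Named genes were the label and rule genes, at most 5 per list with the largest differences at a mean of 20 CPM or more, the 10 highest and 10 lowest calls of equal direction in each library, and the 5 highest and 5 lowest EV 1 ratios. A gene that the rule named among the lowest calls is not reported here. Mt3, Mt4, Slc30a1, Mtf1, Csf3, Camp, Lyz2, Spp1, Higd1a, Fam162a, Hspb1 and Ccl5 were named after their values were seen. Depth limits genes under a few CPM, and intervals cover counting error only.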

Additional observations from a re-analysis of the deposited data

Results flagged for a closer look

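Some log2 differences between Mt-high and Mt-low fibroblasts had one sign in EV 1 and the other in both vehicle libraries. These differences between the libraries were not tested, and with 1 EV library the arm and the library cannot be told apart.

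Ccl5, a chemokine for T cells, had a log2 difference of 1.61 in EV 1, against -1.02 in vehicle 1 and -2.38 in vehicle 2. Its Mt-high cells held 9 UMIs in 3 cells of vehicle 1, 3 UMIs in 2 cells of vehicle 2 and 114 UMIs in 19 cells of EV 1, 28 of them in 1 cell. Fos, a subunit of the AP-1 factor, had 0.15 in EV 1, against -0.68 and -0.76. Mtf1, the zinc-sensing factor, had -0.39, against 0.01 and 0.66. The median of the chemokines and NF-kB targets was 0.061, against -0.20 and -0.28. These 4 also had opposite signs once the median over all genes tested in each library (-0.15 in EV 1, -0.09 and -0.02 in vehicle) was subtracted.

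For 4 others the signs were opposite only before that step. Jund, another AP-1 subunit, had -0.011 in EV 1, against 0.21 and 0.55, and stood at 0.14, 0.30 and 0.57 after it. The median of the fibroblast markers was -0.089, against 0.12 and 0.06 (0.06, 0.21 and 0.08 after it). Heat shock genes and chaperones had -0.026, against 0.07 and 0.10 (0.13, 0.16 and 0.11). Nuclear genes of the respiratory chain had 0.099, against -0.0030 and -0.080 (0.25, 0.08 and -0.06). After it EV 1 was in none of these 4 opposite to both vehicle libraries.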

How the results depend on the processing

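The counts of genes that rose and fell in Mt-high cells (392 and 146) depended on most choices. They were 227 and 21 with DESeq2 (adjusted p given for 1848 genes), 145 and 563 with plain totals, 117 and 95 with no filter on low counts, 636 and 298 at a dividing share of 0.5%, 29 and 7 at 2%, 49 and 29 for 2% or more against under 0.5%, 51 and 13 with cells thinned to 1000 UMIs, and 191 and 52 with a stricter fibroblast rule. Leaving out 1 library gave 140 to 362 and 37 to 90. Without the replicate block, edgeR called 1 and 0. Of 83 named genes called, 21 kept the call with DESeq2, with plain totals and without each library in turn, among them Hilpda, Adm, Ndrg1, Ero1l, Cxcl1, Ier3, Fabp4 and Pcdh9. In edgeR 38 lost it without vehicle 1, 12 without vehicle 2 and 33 without EV 1. With DESeq2, 51 kept it, 3 lost it and 29 had no adjusted p. The call was lost by 63 at 2% (with 2 turned), by 56 with thinned cells (2 turned), by 55 for 2% or more against under 0.5% (1 turned) and by 82 without the replicate block. The cause of these changes was not tested.

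Signs turned for Tex14 (0.20) and Slc30a1 (0.21) at 0.5%, for Hbegf (-0.028) and Ccl5 (-0.31) at 2%, for Ccl5 without EV 1 (-1.56, against 0.90 without vehicle 2) and for Tgfbi with thinned cells (0.16). Of genes near 0 that were not called, Mtf1 turned with plain totals (-0.099), no filter (-0.0033), no replicate block (-0.0037), at 2% (-0.25), for 2% or more against under 0.5% (-0.38) and with doublets removed (-0.043), and ranged from -0.16 to 0.36 with 1 library left out. Pdk1 turned with plain totals (-0.12), no filter (-0.016), at 2% (-0.19), for 2% or more against under 0.5% (-0.12) and with thinned cells (-0.038), and ranged from -0.050 to 0.12. Saa3 turned at 0.5% (1.78), at 2% (0.37), for 2% or more against under 0.5% (1.19), with thinned cells (0.33) and with the stricter rule (0.21).

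The share of Mt-high cells was 21.1% in vehicle 1, 19.9% in vehicle 2 and 69.3% in EV 1 at 0.5% (EV 1 above the vehicle mean by 48.8 points). It was 0.809%, 0.957% and 18.1% at 2% (17.2 points) and 9.12%, 7.22% and 51.1% with thinned cells (42.9 points). EV 1 had 51.1% with the stricter rule (44.8 points) and 35.8% with no limit on Malat1 and Neat1 (30.8 points). Leaving out 1 vehicle library gave 37.4 to 38.6 points.

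Between EV 1 and vehicle, the genes counted as higher and lower in Mt-high cells (47 and 116) became 91 and 54 with TMM factors and 103 and 339 with thinned cells. At 2%, 364 were lower. Leaving out 1 vehicle library gave 90 to 115 and 185 to 295. In Mt-low cells (70 and 113) thinned cells gave 115 and 199, and leaving out 1 vehicle library gave 72 to 82 and 98 to 102.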
